A study of Mus musculus with 6 samples.

Results

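The genes described here are the matrix metalloproteinases (Mmp), the membrane-anchored disintegrin proteases (Adam), the secreted disintegrin proteases with thrombospondin motifs (Adamts) and the tissue inhibitors of metalloproteinases (Timp) of the mouse. They were chosen by symbol, as every gene of the deposited annotation whose name starts with Mmp, Adam, Adamts or Timp followed by a digit. That rule gave 78 of 31053 genes, of which 22 were Mmp, 33 Adam, 19 Adamts and 4 Timp genes. 54 of them held at least 20 unique molecular identifiers (UMIs, 1 per captured RNA molecule) over the 6 libraries and are described, namely 17 Mmp, 17 Adam, 16 Adamts and 4 Timp genes. The remaining 24, mostly Adam genes, were below that count, and 14 of these had no UMI at all.

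The libraries came from adult C57BL6 mice with no further genotype or treatment. 4 were made from tissue on the dorsal cortical surface (cortical surface-associated, labelled as brain) and 2 from tissue peeled off the inner side of the skull (bone-associated, labelled as dura and skull), and each pooled several mice of both sexes. Living cells were sorted with DRAQ5 and propidium iodide and run on the 10x Genomics 3′ kit, and the animals had not been perfused, so blood cells were included. Within each preparation cells were clustered and named from marker genes, none of which was a protease or inhibitor of this set, and the set took no part in the clustering. Names such as mesenchymal-like rest on those markers. Mesenchymal-like cells of the cortical surface are here called leptomeningeal cells and those of the bone-associated libraries dural cells. The study first gave these names by dataset. Its own comparison was between clusters of the merged datasets, 1 mostly of cortical surface cells and 1 nearly all of bone-associated cells. All 8 mesenchymal markers were detected in every library, at a summed level of 6550 to 14339 CPM (UMIs scaled to 1000000 per class and library) in leptomeningeal and 19266 to 22670 CPM in dural cells. 1 of the 4 dural clusters was led by Clec3b, Crym and Gjb6, and Clec3b and Gjb6 were also among the leading genes of the leptomeningeal cluster, so the name dural stands for the preparation and not for a layer.

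After filters 8680 cells were kept, between 739 and 2452 per library with medians of 5458 to 9525 UMIs per cell. Of these, 644 cells of the cortical surface and 466 of the bone-associated libraries stayed without a class name. They entered no class level, no ranking of classes and no comparison below. Cortical surface libraries 3 and 4 stood apart, since hemoglobin genes took 84.6% and 71.9% of their UMIs over all barcodes against 0.0908% to 0.520% in the other libraries. The proteases and inhibitors together took 0.0777% to 0.262% of the UMIs that were not hemoglobin. 35 cell barcodes occurred in more than 1 library. Levels below are CPM of all UMIs of a cell class within a library, and a class was used where a library held at least 10 of its cells. Because the kit tags the 3′ end, a molecule counts once whatever its length, and levels were not divided by length.

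Metalloproteinases of these families cut collagens, proteoglycans and other parts of the extracellular matrix, and several also release growth factors, cytokines and receptors from the cell surface. Timp proteins bind the active site and hold them in check, with Timp3 itself bound to the matrix and able to block Adam and Adamts enzymes as well as Mmps. In the meninges and around vessels, matrix turnover by such enzymes accompanies development, inflammation and the passage of leukocytes.

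A run of 9 neighbouring Mmp genes lies on chromosome 9 (GRCm38, 7272514 to 7699585): Mmp13, Mmp12, Mmp1b, Mmp3, Mmp10, Mmp8, Mmp27, Mmp20 and Mmp7. The described ones did not all have their highest level in the same class, as given below, and for that reason the 100 bases before the start of 4 of them are shown, with Timp3 as an inhibitor with high levels in several classes. Sequences are from RefSeq (GRCm38.p6), all on the plus strand, and Mmp12 has 2 annotated starts. Capitals mark TGANTCA, the letters that AP-1 factors such as Fos and Jun bind, and TATAA or TTATA; each motif reads the same or is paired with its own reverse complement, so both strands were searched.
Mmp3, chr9:7445722-7445821: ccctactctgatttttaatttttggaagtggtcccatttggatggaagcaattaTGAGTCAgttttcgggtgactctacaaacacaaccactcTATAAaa
Mmp13, chr9:7272414-7272513: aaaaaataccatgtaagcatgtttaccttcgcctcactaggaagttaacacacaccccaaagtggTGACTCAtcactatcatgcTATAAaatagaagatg
Mmp12, chr9:7344297-7344396: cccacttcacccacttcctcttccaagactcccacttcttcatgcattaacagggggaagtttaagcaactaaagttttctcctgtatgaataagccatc
Mmp12, chr9:7347274-7347373: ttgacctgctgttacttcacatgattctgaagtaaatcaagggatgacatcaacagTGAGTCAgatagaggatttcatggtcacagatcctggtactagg
Mmp8, chr9:7558329-7558428: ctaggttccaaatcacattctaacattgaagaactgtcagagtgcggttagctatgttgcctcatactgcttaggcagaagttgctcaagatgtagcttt
Timp3, chr10:86300312-86300411: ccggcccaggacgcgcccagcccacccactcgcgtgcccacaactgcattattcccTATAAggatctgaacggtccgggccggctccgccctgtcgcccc
TGANTCA began 46 bases before the start of Mmp3, 35 bases before that of Mmp13 and 44 bases before the later start of Mmp12. It was present in the 250 bases before the start in 7 of the 9 genes of the run, in 11 of 53 promoters of the 48 genes of the whole set that had a promoter sequence, and in 6.75% of 32851 mouse promoters. TATAA or TTATA was present in 6 of the 9, in 18 of 53 and in 22.8% of all. A match describes these letters and does not show that a factor binds there.

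**Figure D1:**
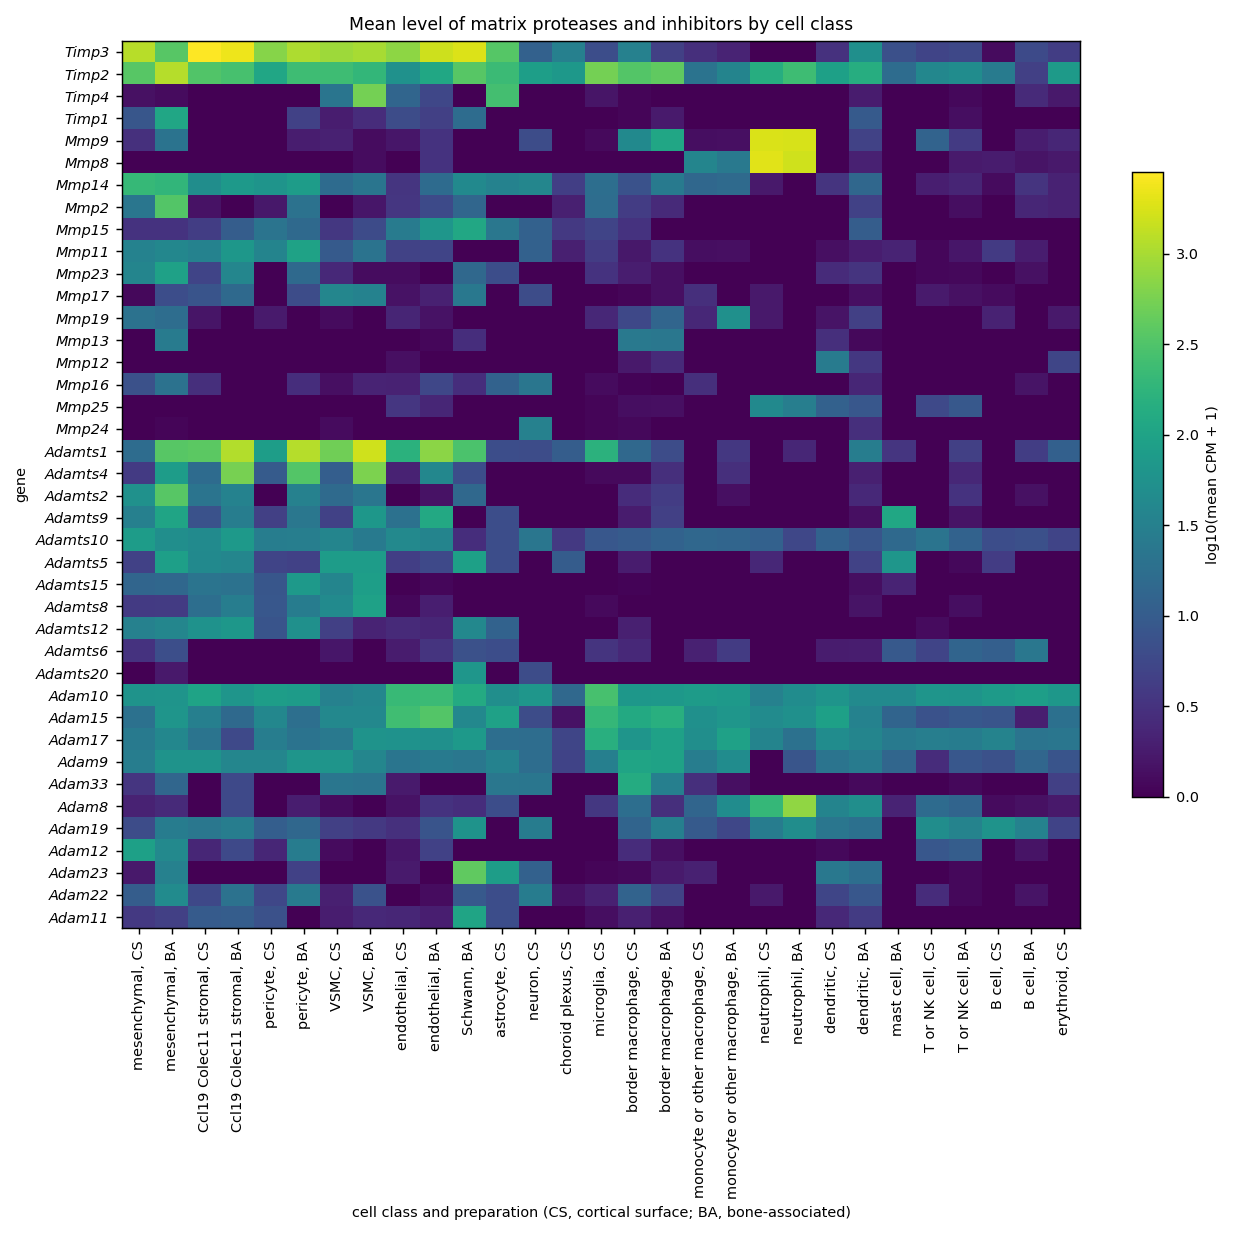
Mean level of the 40 proteases and inhibitors that reached at least 20 CPM in a class, as log10(mean CPM + 1) over libraries (colour), with 1 row per gene and 1 column per cell class and preparation. Timp3 and Timp2 fill most stromal columns, Mmp8 and Mmp9 are brightest in neutrophils, and Adamts1 and Adamts4 are brightest in the bone-associated mural columns.

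Of the inhibitors, Timp3 had its highest level in a stromal group led by Ccl19 and Colec11, which was kept apart from pericytes and mesenchymal cells. In that group Timp3 reached 3605, 2476, 2703 and 2537 CPM in cortical surface libraries 1 to 4 and 2343 CPM in the one bone-associated library with enough cells. Schwann-like cells, found only in the bone-associated libraries, followed with 1686 and 2027 CPM, and these neighbours in the order did not overlap. Pericytes, vascular smooth muscle cells (VSMCs), endothelial cells and leptomeningeal cells held means of 671 to 1531 CPM with overlapping ranges. T and NK cells, taken as a measure of free RNA, held 0 to 11.1 CPM of Timp3.

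Timp2, which besides inhibition takes part in activating pro-Mmp2, was more evenly spread. Its highest levels were the dural cells at 1189 and 1140 CPM and then microglia at 503, 457, 594 and 571 CPM, with no overlap between these classes. Neutrophils held 114 to 269 CPM of Timp2 and T and NK cells 31.8 to 51.9 CPM.

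Timp4 was highest in VSMCs. VSMCs of the bone-associated libraries held 563 and 520 CPM of Timp4 and those of cortical surface libraries 1 and 2 held 20.6 and 20.8 CPM, while the 10 astrocytes of cortical surface library 2 held 261 CPM. Endothelial cells were at 1.59 to 43.0 CPM of Timp4, and pericytes and the Ccl19 Colec11 group had none. Timp1, an inhibitor known to rise in injury and inflammation, was highest in dural cells at 87.2 and 131 CPM. Schwann-like cells were next at 15.4 ± 4.13 CPM (SD, n = 2). 3 of the inhibitor genes each lie inside a synapsin gene on the opposite strand (Timp1 in Syn1, Timp3 in Syn3, Timp4 in Syn2), and exons of Timp3 and Timp4 overlap exons of their host.

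**Figure D2:**
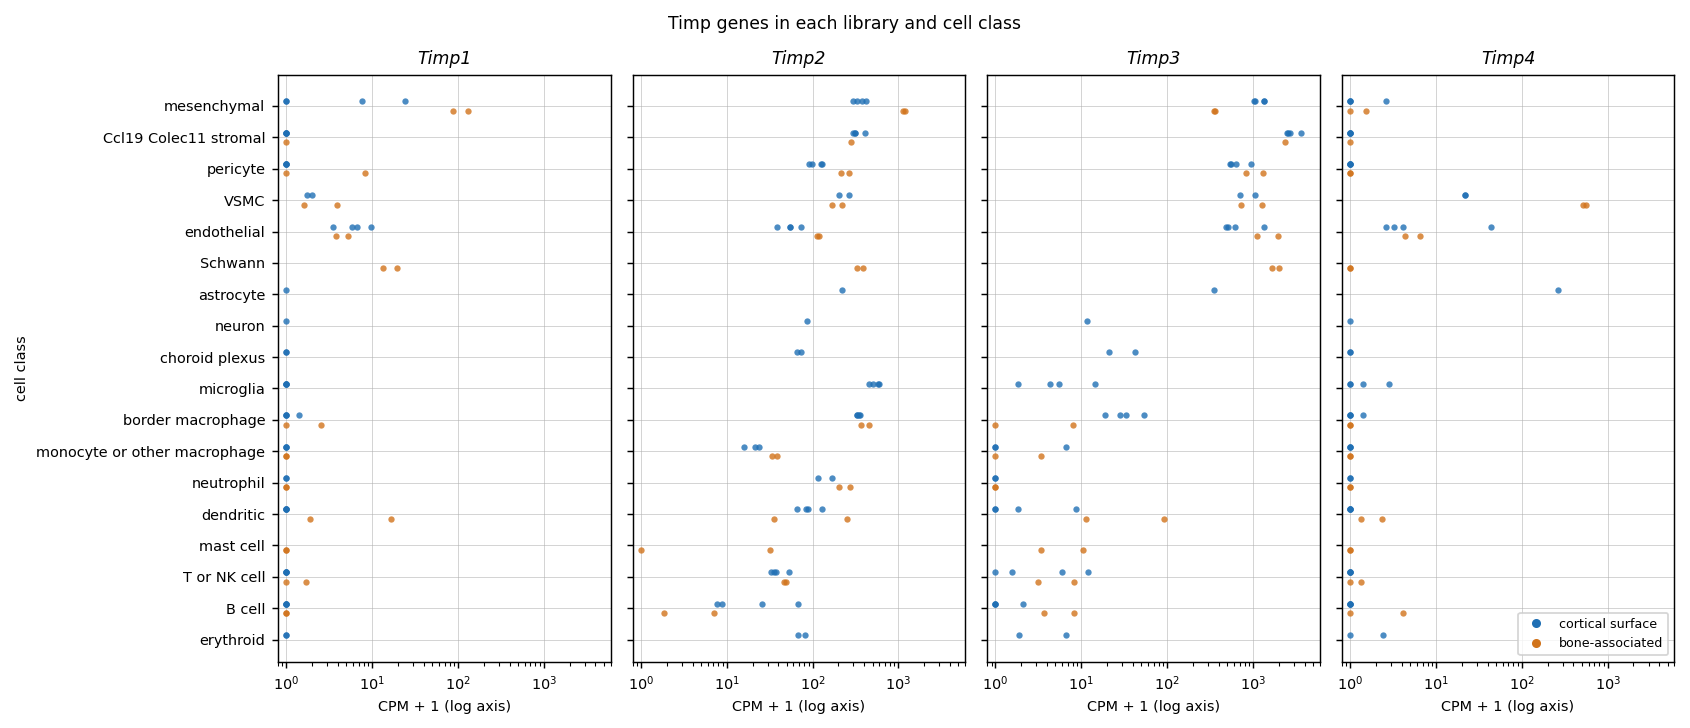
Level of each Timp gene as CPM + 1 (log axis) by cell class, with 1 point per library, blue for cortical surface and orange for bone-associated. Timp4 points rise above 100 CPM only in bone-associated VSMCs and in the astrocytes of 1 library, whereas Timp2 points are spread over nearly all classes.

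Among the metalloproteinases, Mmp8 (neutrophil collagenase) and Mmp9 (gelatinase B) were the most abundant and were concentrated in neutrophils. Mmp14, a membrane-bound enzyme that activates pro-Mmp2, was highest in leptomeningeal cells at 205 ± 40.4 CPM (SD, n = 4) and at 213 and 164 CPM in dural cells. Mmp2 (gelatinase A) was highest in dural cells at 387 and 288 CPM. Leptomeningeal cells followed at a mean of 21.6 CPM and bone-associated pericytes at a mean of 18.9 CPM. Mmp19 was highest in bone-associated monocytes and macrophages at 61.1 and 45.4 CPM. Mmp12, the macrophage elastase, led the Mmp genes of cortical surface dendritic cells at 46.7, 15.3, 19.2 and 24.3 CPM, in 8.55% of these cells, and was at 0 and 5.16 CPM in the bone-associated dendritic cells. The cortical surface dendritic cells held only 54 of the 246 Mmp12 UMIs of all kept cells.

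The Adamts genes were led by Adamts1, which cuts versican and aggrecan. Adamts1 was highest in bone-associated VSMCs at 2083 and 1108 CPM, and bone-associated pericytes at 1600 and 742 CPM overlapped them. Adamts4, another aggrecanase, reached 641 and 540 CPM in bone-associated VSMCs. Adamts2, the procollagen N-proteinase, was highest in dural cells at 330 and 375 CPM. Leptomeningeal cells followed at a mean of 55.2 CPM and the bone-associated Ccl19 Colec11 group at 33.1 CPM. Adamts9 was highest in bone-associated endothelial cells at 109 and 134 CPM, where mast cells at 84.8 and 139 CPM overlapped. Adamts5 had nearly equal levels in Schwann-like cells (75.0 and 106 CPM) and dural cells (90.2 and 84.1 CPM).

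The Adam genes included the widely expressed sheddases Adam10 and Adam17, both highest in microglia, at 278 ± 65.3 and 150 ± 17.2 CPM (SD, n = 4). Adam10 in bone-associated endothelial cells, at 264 and 184 CPM, overlapped microglia. Adam15 was highest in bone-associated endothelial cells at 354 and 313 CPM, Adam8 in bone-associated neutrophils at 659 and 869 CPM, and Adam33 in cortical surface border macrophages at 132 ± 19.7 CPM (SD, n = 4). Schwann-like cells led for Adam23, a protein without protease activity that binds Lgi proteins, at 575 and 249 CPM. The related Adam11 reached 137 and 69.6 CPM in the same cells and Adamts20 87.4 and 40.3 CPM, although the first of these libraries held only 15 such cells.

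Counted over all 54 genes, the named class with the highest mean was the dural cell for 13, the Schwann-like cell for 7, the bone-associated VSMC for 5, and microglia and leptomeningeal cells for 4 each. Many of these tops were shared within error. The others were spread over further classes, among them low genes such as Adamts14 in T and NK cells (18.9 CPM), Adamts6 in bone-associated B cells (22.6 CPM), Adamts16 in microglia (14.2 CPM) and Mmp16, Mmp24 and Adam4 in the 25 neurons of 1 library (21.5, 32.2 and 10.7 CPM). Of the genes highest in Schwann-like cells, Adam28 rested on 1 UMI there. Adam19 was at 58.4 CPM in these and in cortical surface B cells. Highest classes were not ranked over all genes, so the counts describe these 54 only.

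The balance of the inhibitors to the metalloproteinases differed widely between classes. For each UMI of an Mmp gene there were 0.0327 and 0.0443 Timp UMIs in cortical surface neutrophils and 0.0693 and 0.0701 in bone-associated ones. Monocytes and other macrophages held 0.292 to 0.417, dural cells 1.95 and 2.35, leptomeningeal cells 4.44 to 4.94 and microglia 9.56 to 13.2. The Ccl19 Colec11 group of the cortical surface was highest at 25.2 to 38.8, together with endothelial cells, whose values spread from 9.57 to 42.9. These are ratios of RNA molecules and not of protein or activity.

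The widest comparison asked how mesenchymal cells of the cortical surface and of the bone-associated tissue differ. A gene was tested where more than 10% of cells in one group or the other had a UMI, which held for 29 of the 54. The test was edgeR's quasi-likelihood fit over the 4 and 2 library sums, and a gene was called when its adjusted p (Benjamini-Hochberg) was below 0.05 and its log2 difference was 1.3 or more in size. A gene enters such a test through the group where it is high, so the counts describe the tested genes and not the whole set. 17 of the 29 were higher in dural cells, where 9.79% of all 9555 tested genes were called in that direction, and 1 was higher in leptomeningeal cells, against 5.38% of all. The median log2 difference (leptomeningeal over dural) was -1.79 over the 29 and -0.07 over all tested genes. By family, the dural calls were 3 of 7 Mmp, 5 of 9 Adam, 7 of 10 Adamts and 2 of 3 Timp genes.

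The one gene higher in leptomeningeal cells was Timp3. It was at 1352, 1019, 1351 and 1060 CPM in the leptomeningeal cells of libraries 1 to 4 and at 358 and 353 CPM in dural cells. All 4 cortical surface libraries lay above both bone-associated ones, a log2 difference of 1.77 ± 0.32 (SE), adjusted p = 0.000273 in edgeR. Timp2 went the other way, at 326, 380, 292 and 420 CPM against 1189 and 1140 CPM, a log2 difference of -1.71 ± 0.27 (SE). Timp1 did so as well, at 6.59, 23.1, 0 and 0 CPM against 87.2 and 131 CPM, a log2 difference of -3.03 ± 0.46 (SE). The sum of the 4 Timp genes was 1422 to 1686 CPM in leptomeningeal and 1625 and 1634 CPM in dural cells, so the sums overlapped while their makeup differed.

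Of the gelatinases and their activator, Mmp2 was at 36.2, 17.2, 22.4 and 10.5 CPM in leptomeningeal cells and 387 and 288 CPM in dural cells. The groups did not overlap, and the log2 difference was -3.84 ± 0.34 (SE), adjusted p = 3.28e-08 in edgeR. Mmp14 did not pass the test, with 227, 156, 247 and 189 CPM against 213 and 164 CPM and overlapping groups. Mmp23, a small membrane-anchored enzyme, was higher in dural cells (90.2 and 98.0 CPM against 28.0 to 52.5 CPM), a call that was lost without doublet removal and with cells of at least 1000 genes. Mmp11, Mmp16 and Mmp19 were not called. Mmp9 was at 10.4 and 29.4 CPM in dural cells and at 0, 8.21, 0 and 0 CPM in leptomeningeal cells, adjusted p = 0.0142. The 11 leptomeningeal UMIs of Mmp9 came from 3 cells of library 2, where neutrophil markers summed to 618 CPM against 6.59 to 31.5 CPM in the other 3 cortical surface libraries; their part in the result was not tested. The call of Mmp9 was lost without cortical surface library 1 or bone-associated library 2 and without doublet removal.

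The Adamts genes gave the most calls. Adamts1 was at 11.5, 34.3, 5.61 and 10.5 CPM in leptomeningeal cells and 466 and 257 CPM in dural cells, a log2 difference of -4.05 ± 0.40 (SE), adjusted p = 1.51e-07 in edgeR. Adamts4 had 2 UMIs over all leptomeningeal cells and 277 over the dural cells, a ratio of UMI shares of 67.6 (95% interval 18.5 to 561, counting error only). Adamts5, an aggrecanase, was at 6.59, 2.24, 5.61 and 0 CPM against 90.2 and 84.1 CPM. The procollagen proteinases Adamts2 and Adamts3 were both higher in dural cells, Adamts2 at 330 and 375 CPM against 28.0 to 73.5 CPM and Adamts3 at 8.87 and 11.1 CPM against 0 to 1.65 CPM. Adamts9 and Adamts17 were called in the same direction. The groups of libraries did not overlap for these genes, but they were picked by the call, and overlap was not counted over all tested genes. The calls of the low genes were less stable, Adamts17 being lost without bone-associated library 2 and Adamts3 without cortical surface library 2. Adamts10, Adamts12 and Adamts15 did not pass the test, and Adamts10 was at 56.7 to 94.5 CPM in leptomeningeal and 44.4 and 54.4 CPM in dural cells.

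Of the Adam genes, Adam15, Adam19, Adam22, Adam23 and Adam33 were higher in dural cells. Adam23 showed the largest of these differences, with 0, 2.98, 0 and 0 CPM against 35.5 and 29.1 CPM and a log2 difference of -4.11 ± 0.62 (SE). The sheddases Adam10 and Adam17 were not called, with log2 differences of 0.05 ± 0.32 and -0.52 ± 0.37 (SE). Adam12, a gene of cells that form connective tissue and muscle, was at 120, 92.5, 44.9 and 105 CPM in leptomeningeal cells and 51.8 and 31.2 CPM in dural cells. The groups overlapped through library 3, and its log2 difference of 1.24 ± 0.35 (SE) stayed under the limit of 1.3 with an adjusted p of 0.0139 in edgeR. It passed without cortical surface library 3 or bone-associated library 1. Adam19 lost its call without cortical surface library 1, and Adam33 without cortical surface library 2 or bone-associated library 2. Without doublet removal neither Adam15 nor Adam33 was called, and at clustering resolution 2.5 the log2 difference of Adam33 turned to 0.0178.

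**Figure D3:**
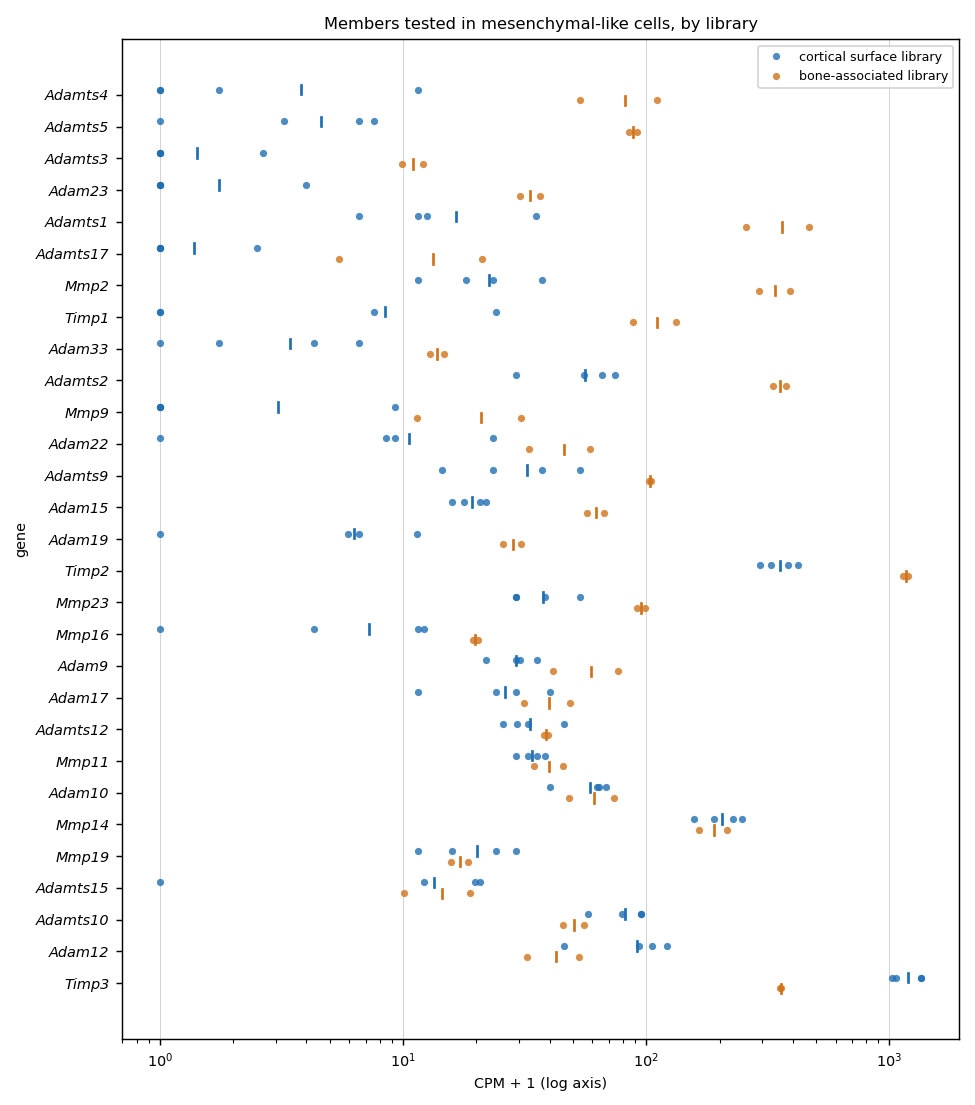
Level of the 29 tested genes in mesenchymal-like cells as CPM + 1 (log axis), with 1 point per library and a bar at the arithmetic mean, blue for cortical surface and orange for bone-associated, ordered by log2 difference. From Adamts4 at the top to Mmp23 the orange points lie to the right of the blue ones, Mmp14 and Adam10 overlap, and Timp3 at the foot is the only called gene with blue to the right.

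Other quantities moved with these groups. Early-response and heat-shock genes known to be induced by cell dissociation (15 genes, among them Fos, Egr1, Hspa1a) summed to 11910 and 9568 CPM in dural cells and to 1725 to 2666 CPM in leptomeningeal cells, and 12 of the 15 were called higher in dural cells, where 9.79% of all genes were, and none in leptomeningeal cells. VSMC markers summed to 2773 and 997 CPM in dural and 84.0 to 342 CPM in leptomeningeal cells, and osteoblast markers to 54.7 and 95.7 CPM against 0 to 6.59 CPM. Dural cells were also deeper, with medians of 17449 and 14010 UMIs per cell against 4456 to 9098. The part of these differences in the protease levels was not tested, and preparation, dissection and digestion cannot be told apart from the cell group. With cells thinned to 1500 UMIs each, only 10 of the genes could be tested, and 7 of them were called, 6 of which were higher in dural cells. This count is not set beside the share of all genes called in the thinned fit, so it describes these genes only.

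Other genes of matrix turnover, taken as lists, were compared in the same fit, in which 9.79% of all genes were called higher in dural and 5.38% in leptomeningeal cells (15.2% in either direction). Of 11 tested proteases outside the 4 families, 8 were higher in dural cells and none in leptomeningeal cells (Prss23, Prss35, Pappa, Fap, Mme, Htra3, Bmp1 and Htra1), with log2 differences from -7.32 (Prss35) to -1.73 (Htra1). Fap is a membrane peptidase of activated fibroblasts and Pappa cuts binding proteins of insulin-like growth factors. Plat, the tissue plasminogen activator, was higher in leptomeningeal cells by a log2 difference of 1.78. The proteoglycans that Adamts enzymes cut, Vcan and Acan, were both higher in dural cells, with log2 differences of -2.46 and -8.24. Adamtsl1 and Thsd4, which share domains with Adamts proteins but have no protease domain, were also higher there. Among 12 tested regulators 1 was called, near the share of all genes, namely Pcsk6, a convertase (log2 difference -1.89). Reck, a membrane-anchored inhibitor, and Furin, a convertase that activates many of these enzymes, were not, at 0.43 ± 0.33 and -0.35 (log2).

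Within the dural cells the genes were not evenly spread. The clusters had formed without these genes, and their levels are given as a description with no test. The cluster led by Galr2, Cilp2 and Comp (135 cells) held 58.1 CPM of Mmp9, in 32 cells, and 4.96 CPM of Adam12. The cluster led by Clec3b, Crym and Angptl1 (118 cells) was the opposite, with 2.11 CPM of Mmp9 and 51.7 CPM of Adam12. Mmp3 (stromelysin 1), which acts on proteoglycans and activates other Mmps, was at 30.1 CPM in the second and 3.97 CPM in the first. A small cluster led by Wisp2 and Ptx3 (20 cells) had 243 CPM of Adamts4, 788 CPM of Adamts1 and 222 CPM of Mmp11, and 54.5 CPM of Mmp2 against 207 to 418 CPM in the other 3 clusters. In that small cluster 1 cell held 31 of 67 UMIs of Adamts4 and 1 cell held 95 of 217 UMIs of Adamts1. Its 12 cells from bone-associated library 2 held 104 CPM of Adamts4 and 438 CPM of Adamts1, close to the 103 and 424 CPM of the 25 cells that another dural cluster had in the same library.

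Mmp3 and Mmp13 are named after their values were seen, and neither passed the detection filter of the mesenchymal or the macrophage comparison. With edgeR's filterByExpr in its place Mmp13 was called, as higher in dural than leptomeningeal cells and in border macrophages than microglia. Mmp3 was at 17.7 and 13.7 CPM in dural cells, in 4.64% of them, and at 0 CPM in the leptomeningeal cells of all 4 libraries. Outside dural cells it held 3 of its 68 UMIs. Mmp13 (collagenase 3) was at 32.5 and 20.1 CPM in dural cells, where 1 cell held 35 of its 100 UMIs, and at 0 CPM in leptomeningeal cells. The 32.5 CPM of bone-associated library 1 came from 1 other dural cell, with 22 UMIs. Border macrophages also held Mmp13, at 10.5, 8.28, 70.9 and 6.83 CPM in the cortical surface libraries, with the third value from 4 cells, 1 of which held 39 UMIs. Along the run on chromosome 9, Mmp13 and Mmp3, both with TGANTCA and TATAA in the sequences shown above, had their highest class in dural cells. For Mmp13 the mean of 26.3 CPM there was close to the 24.1 CPM of cortical surface border macrophages, the ranges overlapped, and the highest class changed without doublet removal and at clustering resolution 2.5. Mmp7, which also had TGANTCA (63 bases before its start) and TATAA or TTATA (26 bases), had 20 UMIs in all. Only 2 of them were in bone-associated dendritic cells, its highest named class (0.344 CPM), so that class does not stand for the gene. Mmp1b, Mmp10 and Mmp20 of the same run also had TGANTCA and TATAA or TTATA before their starts. These genes held 0, 2 and 0 UMIs over all barcodes, so they have no class to set beside the motifs. Among the named classes Mmp12, with TGANTCA before 1 of its starts, was highest in dendritic cells of the cortical surface. Mmp8, with neither motif in the stretch shown, was highest in neutrophils. A relation of motif and class was not tested.

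The 2 preparations were also compared for endothelial cells. 11 of the 54 genes were tested, and 3 were higher in the bone-associated cells, where 4.41% of 7716 genes were called, and none in the cortical surface cells, where 2.11% were (6.52% in either direction). By an unadjusted p under 0.05, 7 of the 11 were higher in the bone-associated and 0 in the cortical surface cells, where 13.7% and 11% of all genes were (24.7% in either direction). DESeq2 called 3 genes as well. Adamts1 was at 177, 215, 149 and 99.8 CPM in cortical surface and 982 and 433 CPM in bone-associated endothelial cells, a log2 difference of -2.11 ± 0.26 (SE). Adamts9 was at 11.2, 21.1, 31.5 and 10.2 CPM against 109 and 134 CPM, and Adamts4 had 4 UMIs against 184. The groups did not overlap for these Adamts genes, which were picked by the call, and overlap was not counted over all tested genes. Timp3, Timp2 and Mmp15, a membrane-bound enzyme, had adjusted p-values of 0.0259, 0.00183 and 0.00795 in edgeR but log2 differences of -1.05, -1.04 and -1.15, under the limit. Timp3 was at 1356, 623, 479 and 506 CPM against 1936 and 1125 CPM, so these groups overlapped, and it passed the limit without cortical surface library 1 or bone-associated library 2. Mmp15 did so without cortical surface library 2. Adam10, Adam15 and Adam17 were not called.

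Dissociation-response genes in endothelial cells summed to 15231, 18736, 3113 and 4363 CPM in the 4 cortical surface libraries and to 24820 and 20900 CPM in the bone-associated ones, so libraries 1 and 2 of the cortical surface were closer to the bone-associated sums than libraries 3 and 4 were. Of the 15 genes, 6 were called higher in bone-associated and none in cortical surface endothelial cells, where 4.41% and 2.11% of all genes were. The part of these genes in the Adamts differences was not tested. With libraries 3 and 4 both left out, 3 proteases or inhibitors were called. That count is not set beside the share of all genes called in that fit.

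**Figure D4:**
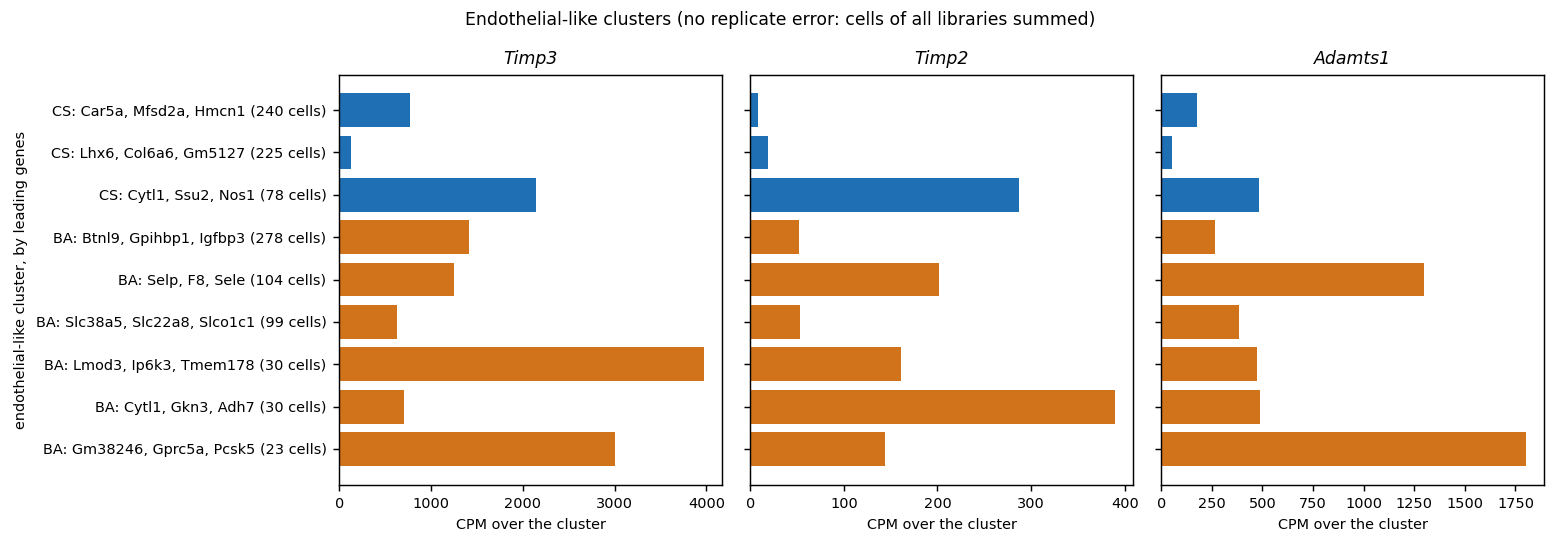
CPM of Timp3, Timp2 and Adamts1 in each endothelial-like cluster, named by its leading genes, with cells of all libraries summed and no error bar; blue is cortical surface and orange bone-associated. Timp3 runs from 133 CPM (Lhx6, Col6a6) to 2141 CPM (Cytl1, Ssu2, Nos1) within the cortical surface and up to 3976 CPM in the bone-associated clusters.

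Levels also differed between endothelial clusters of the same preparation. The cortical surface cluster that carried Slc38a5 and Vwf among its leading genes (225 cells) held 133 CPM of Timp3, the one with Mfsd2a (240 cells) 777 CPM, and the one with Cytl1, Gkn3 and Gja5 (78 cells) 2141 CPM. Gja5 is a connexin of arterial endothelium and Vwf is high in venous endothelium. The bone-associated cluster with Cytl1, Gkn3 and Gja5 (30 cells) held 704 CPM of Timp3 and 489 CPM of Adamts1, and Adamts1 in its cortical surface counterpart was 486 CPM. The highest Timp3 was 3976 CPM in a bone-associated cluster led by Lmod3, Ip6k3 and Tmem178 (30 cells), and the highest Adamts1, 1803 CPM, was in one led by Gm38246, Gprc5a and Pcsk5 (23 cells). Since different clusters made up the class in the 2 preparations, the comparison above mixes level and makeup, and fewer cells of a kind and less RNA per cell cannot be told apart in a library sum.

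Of 12 tested regulators in endothelial cells 4 were called, 2 in each direction. Of all genes in that fit, 2.11% were called higher on the cortical surface and 4.41% in the bone-associated cells (6.52% in either direction). Reck and Bsg, an inducer of Mmp genes, were higher on the cortical surface (log2 differences 1.68 and 1.97), and Pcsk5 and Tspan15, a partner of Adam10, were higher in the bone-associated cells (-1.43 and -2.35). Bmp1 and Adamtsl1 were higher there as well.

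Whether the preparation effect itself differed between mesenchymal and endothelial cells was tested with an interaction term over 12 library sums, a comparison chosen after the data had been seen. Timp3 differed, being higher in leptomeningeal than dural cells but lower in cortical surface than bone-associated endothelial cells, with a difference of effects of 2.93 ± 0.39 (log2, SE), adjusted p = 1.71e-06 in edgeR. Adamts1 had the same direction in both classes, with a larger difference in mesenchymal cells by -2.12 ± 0.37 (log2, SE), adjusted p = 0.000104. Adam15 differed by -1.48 ± 0.36, adjusted p = 0.00431. In total, 7 of 30 genes passed, against 9.38% of 10141 genes. The other 4, Mmp14 (2.44), Timp1 (-3.27), Adam12 (3.09) and Adam33 (-6.36, log2), with adjusted p-values of 0.000888, 0.00541, 0.00674 and 0.0461, did not reach the detection filter in the endothelial comparison. For Timp2 and Adamts9 the difference of effects did not pass, at -0.57 ± 0.31 and 0.74 ± 0.46 (log2, SE).

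Within the cortical surface libraries border macrophages, the resident macrophages of the meninges and perivascular spaces, were compared with microglia of the same libraries. 10 genes were tested. 5 were higher in border macrophages, where 8.74% of 7457 genes were called, and 2 in microglia, where 7.97% were. Adam33, known for its association with asthma, was at 123, 116, 160 and 127 CPM in border macrophages, and no microglial cell of any library held a UMI of it. Against a floor of 3 counts over all microglia (0.637 CPM) that is at least 195-fold higher. 48.7% of border macrophages had a UMI of Adam33, against 0 of 520 T and NK cells in these libraries. Median depths per library were 13078.5, 12035, 3105 and 3409.5 UMIs in border macrophages. In T and NK cells they were 7015.5, 8449, 6158 and 5569 UMIs. The border macrophages of the bone-associated libraries held less Adam33, at 17.5 and 42.4 CPM.

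Mmp9 was at 47.2, 40.3, 33.8 and 50.6 CPM in border macrophages and at 0, 0, 0 and 0.834 CPM in microglia, with 276 and 2 UMIs, a ratio of UMI shares of 102 (95% interval 28.0 to 848, counting error only). It came from 72 of 710 cells, and 10.1% of border macrophages against 3.65% of T and NK cells had a UMI. Mmp8, as abundant as Mmp9 in neutrophils, had no UMI in border macrophages of any library. Neutrophil markers summed to 35.4, 46.3, 50.7 and 111 CPM in the border macrophages of the cortical surface libraries. In the microglia they summed to 425, 254, 218 and 264 CPM. Of the 8 markers, 6, 5, 4 and 1 had no UMI in the microglia of libraries 1 to 4. In the border macrophages 2, 2, 4 and 3 had none. The sums of the 2 classes thus rest on different numbers of markers and do not rank them by neutrophil RNA. The part of neutrophil RNA in the Mmp9 level was not tested. Bone-associated border macrophages held 87.5 and 132 CPM of Mmp9. Adam9, a widely expressed sheddase, Adam8, of activated myeloid cells, and Timp3 were also higher in border macrophages. Adam9 was at 112, 117, 92.9 and 84.7 CPM against 19.8 to 37.1 CPM, while Timp3 at 27.0, 52.7, 32.1 and 17.8 CPM was far below its level in stromal classes. Mesenchymal markers summed to 107, 358, 282 and 71.0 CPM in the border macrophages and 97.9, 80.6, 63.8 and 78.8 CPM in the microglia of these libraries, and their part in the Timp3 difference was not tested. At clustering resolution 2.5 Timp3 no longer reached the detection filter.

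Microglia were higher in Adam10 and Adamts1. Adam10, the sheddase of Notch and amyloid precursor protein, was at 375, 234, 245 and 257 CPM in microglia and 74.1, 61.0, 65.9 and 64.2 CPM in border macrophages, a log2 difference (border macrophage over microglia) of -1.86 ± 0.13 (SE). Adamts1 was at 280, 215, 74.8 and 91.3 CPM against 26.5, 25.2, 3.38 and 0 CPM. In both classes its values in libraries 1 and 2 were above those in libraries 3 and 4, as were the summed dissociation-response genes (22088 and 24655 against 7546 and 8272 CPM in microglia, 40234 and 38138 against 10241 and 15539 CPM in border macrophages). The microglial cluster led by Il1a, Gpr84 and Sall3 (89 cells, of which library 1 gave 14 and library 2 gave 58) held 428 CPM of Adamts1, and the other microglial clusters held 69.3 and 91.0 CPM. Adam17, Timp2 and Adam15 had adjusted p-values under the threshold with log2 differences of -1.10, -0.42 and -0.46, under the limit for a call. Of other genes of this biology, Plau, the urokinase, and Adamtsl5 were higher in border macrophages (log2 differences 1.98 and 5.65), and Serpine2, Lrp1, Tspan33 and Ctss were higher in microglia.

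Mural cells were compared in the 4 libraries that held both VSMCs and pericytes, with library as a block. Of 22 tested genes, 7 were higher in VSMCs, against 8.58% of 8215 genes, and 4 in pericytes, against 7.67%. Timp4 was at 20.6 and 20.8 CPM in VSMCs of the cortical surface and 563 and 520 CPM in those of the bone-associated libraries, and at 0 in the pericytes of all 4 libraries. Set against 3 counts over the pericytes of the same preparation, it was at least 3.95-fold higher on the cortical surface and at least 119-fold higher in the bone-associated libraries. The difference in VSMC level between the preparations was not tested.

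Adamts5 was at 78.6, 83.5, 103 and 54.9 CPM in VSMCs and at 0, 0, 0 and 7.33 CPM in pericytes (libraries in the order cortical surface 1 and 2, bone-associated 1 and 2). Mmp17, a membrane-anchored enzyme of vascular smooth muscle, was at 48.5, 25.7, 46.6 and 19.5 CPM in VSMCs against 2 UMIs in all pericytes. Adamts8 was higher as well, and Adam33 and Adamts14, with no UMI in pericytes, were at least 8.85-fold and 5.92-fold higher against 3 counts over the pericytes of all 4 libraries. Adamts1 was at 442, 564, 2083 and 1108 CPM in VSMCs and 134, 94.1, 1600 and 742 CPM in pericytes, higher in VSMCs within each library, with a log2 difference of 1.56 ± 0.35 (SE), adjusted p = 0.00608 in edgeR. This call was lost without cortical surface library 2 and when the Ccl19 Colec11 group was counted with the pericytes. Dissociation-response genes summed to 28351 to 39869 CPM in VSMCs and 12596 to 33550 CPM in pericytes, and 10 of the 15 were called higher in VSMCs and 2 in pericytes, where 8.58% and 7.67% of all genes were.

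Pericytes were higher in 3 Mmp genes and 1 Adamts gene. Mmp14 was at 59.6, 48.4, 96.7 and 64.1 CPM in pericytes and 14.0, 15.8, 24.2 and 17.1 CPM in VSMCs, with no overlap. Mmp11 (stromelysin 3), Mmp15 and Adamts12 followed with log2 differences (VSMC over pericyte) of -1.96 ± 0.30, -2.02 ± 0.58 and -3.19 ± 0.70 (SE). Adamts12 in pericytes was at 9.93 and 8.06 CPM on the cortical surface and 70.3 and 36.6 CPM in the bone-associated libraries, and its call was lost without bone-associated library 2. That of Mmp15 was lost without cortical surface library 1 or 2 or bone-associated library 1. Timp3 and Timp2 did not pass the test. Adamts4, at 5.14 and 14.3 CPM in cortical surface VSMCs and 641 and 540 CPM in bone-associated ones, had a log2 difference of 0.96 between the mural classes, under the limit, and was likewise low in cortical surface pericytes (4.96 and 13.4 CPM) and high in bone-associated ones (343 and 328 CPM). In the same fit Tspan15, Reck, Fap, Frmd8 and Lrp1 were higher in pericytes, and Adamtsl1 and Prss23 were higher in VSMCs.

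**Figure D5:**
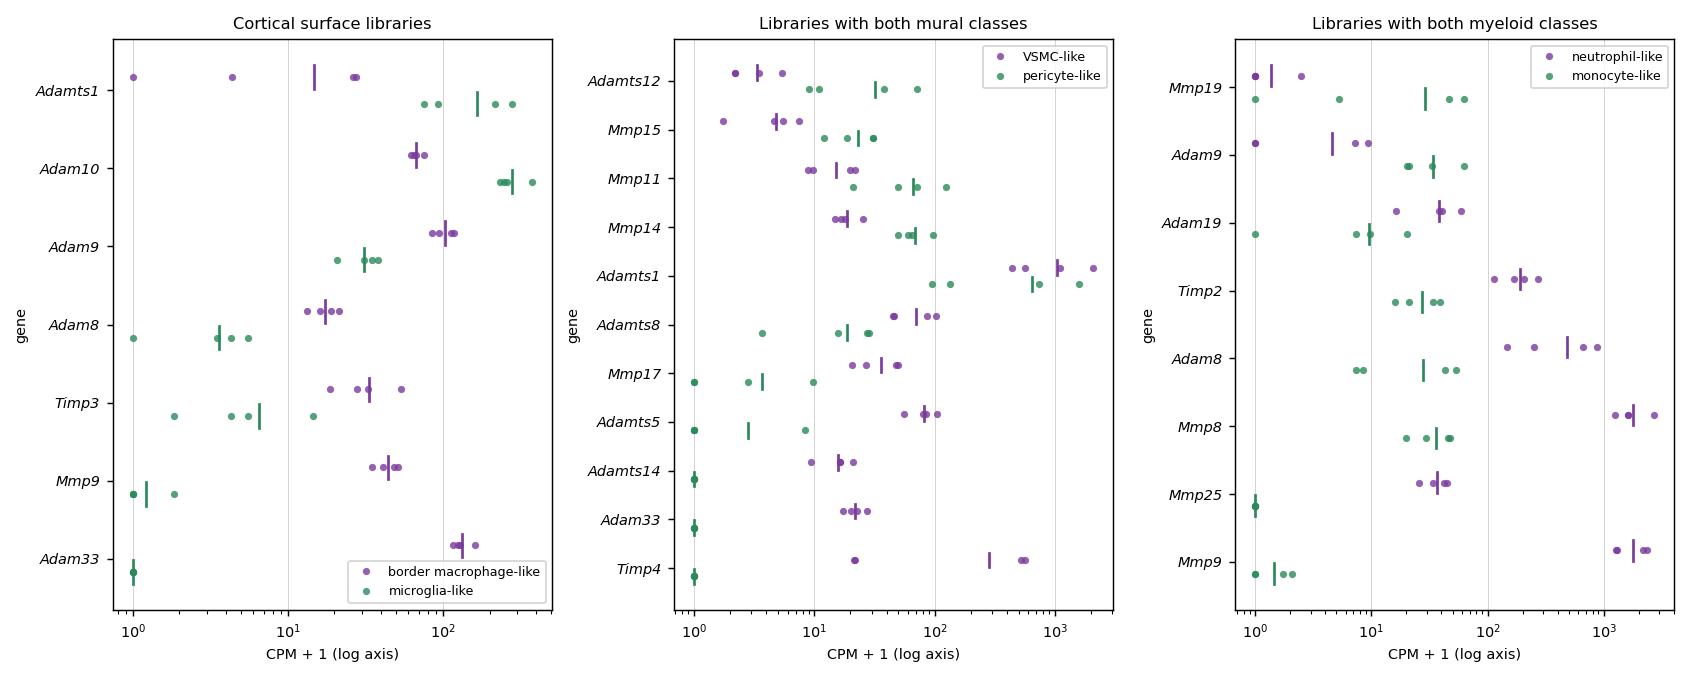
Called genes in border macrophage-like against microglia-like cells (left), VSMC-like against pericyte-like cells (middle) and neutrophil-like against monocyte-like cells (right), as CPM + 1 (log axis) with 1 point per library and a bar at the arithmetic mean. Points at 1 are libraries with no UMI, as for Adam33 in microglia, Timp4 in pericytes and Mmp25 in monocytes.

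Neutrophils and monocytes or other macrophages were compared in cortical surface libraries 3 and 4 and both bone-associated libraries. Of 12 tested genes, 6 were higher in neutrophils, against 11.6% of 7170 genes, and 2 in monocytes, against 24.2% (35.8% in either direction). Mmp9 was at 2377, 1265, 1294 and 2193 CPM in neutrophils and 0 to 1.07 CPM in monocytes, where only 2 UMIs were found. Mmp8 was at 2729, 1249, 1615 and 1603 CPM in neutrophils and 18.8 to 46.9 CPM in monocytes, and Mmp25, a membrane-anchored enzyme of leukocytes, at 24.7 to 43.7 CPM against no UMI, at least 41.0-fold higher. Adam8 was at 250 and 146 CPM in the neutrophils of the cortical surface and 659 and 869 CPM in those of the bone-associated libraries, above monocytes throughout (6.37 to 52.0 CPM). Timp2 and Adam19 were also higher in neutrophils, Timp2 at 168, 114, 203 and 269 CPM against 14.9 to 37.6 CPM.

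Monocytes were higher in Adam9 and Mmp19. The Mmp19 difference rested on the bone-associated libraries, where monocytes held 61.1 and 45.4 CPM against 4.25 and 0 CPM on the cortical surface, and its call was lost without bone-associated library 2. Adam10, Adam15, Adam17 and Adamts10 were not called. Of the listed genes, Plaur, the urokinase receptor, was higher in neutrophils and Vcan, Ctss, Ctsb, Lrp1, Serpinb2 and Tspan17 were higher in monocytes.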

How the data were processed

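The authors deposited, per library, raw UMI counts per gene and barcode, made with Cell Ranger on mm10 (version 3 in the submitters' processing notes, 6.1.2 in the matrix headers). The methods describe digestion with collagenase and dispase, whereas the labels name papain. Barcodes of 500 genes or more were kept if mitochondrial genes took no more than 10% of UMIs, doublets were removed at 0.8% per 1000 cells, and cells were clustered per preparation without batch correction (2000 variable genes, 30 components, 15 neighbours, Leiden resolution 1.5; leidenalg 0.10.2). No correction for free RNA was made. The exemption of myeloid and glial families from the rule for mixed clusters, a single split of mixed clusters (resolution 1.0, 10 neighbours) and the separate Ccl19 Colec11 group were decided after the data were seen. The members and gene lists were chosen with earlier results of these data known.

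Counts were summed per library and class (at least 10 cells) and tested with edgeR 4.0.16 (quasi-likelihood, TMM scaling, Benjamini-Hochberg adjustment over all tested genes). The preparations were compared without a block, classes of the same libraries with library as a block. The methods describe the runs as independent, each from several mice, so p-values measure the spread between these pools. Exact intervals cover counting error only. On simulated counts with 200 changed genes the fit recovered 183 in the mesenchymal, 197 in the endothelial, 197 in the macrophage, 190 in the mural and 190 in the neutrophil comparison. The changed genes were not taken from those with the lowest counts, and all changed by the same factor. Every gene had the same dispersion and passed the detection filter, and libraries differed only in depth. The recovery therefore does not carry over to low or more variable genes. Alternatives were DESeq2 1.42.0, another scaling, filters, clustering and leaving out libraries. Genes were named if called, if among 11 chosen members, or if the leading member of a family in a class. A gene of the lists is not reported here. Positions are from GENCODE M21 (GRCm38).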

Additional observations from a re-analysis of the deposited data

Results flagged for a closer look

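Of 72 groups of 4 libraries examined, 2 held a library far from the others by Dixon's criterion, and chance alone gives such a gap in about 1 group in 20. Timp3 in the endothelial cells of cortical surface library 1 was 1356 CPM, where the other libraries held 479 to 623 CPM. Adam10 in the microglia of the same library was 375 CPM, where the others held 234 to 257 CPM. Without that library Timp3 passed as higher in bone-associated endothelial cells. The preparation effect differed between mesenchymal and endothelial cells for Timp3 by 2.93, for Adamts1 by -2.12 and for Adam15 by -1.48 on the log2 scale, tested as an interaction.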

How the results depend on the processing

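With cells thinned to 1500 UMIs the called genes fell to 7 in the mesenchymal, 2 in the endothelial (Adamts4 could not be tested), 3 in the macrophage, 5 in the mural and 4 in the neutrophil comparison, as fewer genes were detected often enough to be tested (10 of 29 in the mesenchymal one). With edgeR's filterByExpr in place of the detection filter, 12 genes were called between border macrophages and microglia. Leaving out 1 library at a time gave 15 to 19 calls in the mesenchymal, 3 to 4 in the endothelial, 7 in each fit of the macrophage, 10 to 11 in the mural and 7 to 8 in the neutrophil comparison. DESeq2 called 12 genes in the mesenchymal comparison and lost Adam19, Adam33, Adamts3, Adamts17, Mmp9 and Timp1; the cause was not tested. Adam33 in mesenchymal cells turned to 0.0178 (log2) at clustering resolution 2.5, and Mmp9 was not called there. Of 875 values for single genes that could be tested under these alternatives, 842 kept their direction and side of the threshold, 29 lost and 3 gained it, and 1 was reversed. The values cover called genes and the 11 chosen members, called or not. Calls lost because a gene could no longer be tested are left out, as for 11 called genes of the mesenchymal comparison after thinning. With cortical surface libraries 3 and 4 both left out, an alternative chosen after seeing the data, 19, 3 and 7 genes were called in the mesenchymal, endothelial and macrophage comparisons. The counts of this section are not set beside the share of all genes called in each fit. A change in them was therefore not compared with a general change in calls.

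Cortical surface and bone-associated libraries share the numbers 1 and 2, but the labels do not pair them, and deviations of same-numbered libraries correlated at 0.0442 and 0.156 in mesenchymal and 0.221 and 0.125 in endothelial cells. With the number as a replicate block, 19 and 3 genes were called. Without the library block, 7, 10 and 7 genes were called in the macrophage, mural and neutrophil comparisons, and Adamts1 in mural cells and Mmp19 in myeloid cells lost their call. Depth limited the small classes, since leptomeningeal cells of cortical surface library 4 numbered 20.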
